A study of Mus musculus with 6 samples.

Results

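The 9 genes described here, C1qa, C1qb, C1qc, C1ra, C1s1, C2, C3, C4b and Cfb, encode components of the classical and alternative pathways of complement. They were taken by name from the 24421 genes of a raw count table, and all 9 were listed. The table holds RNA sequencing of isolated mouse pancreatic islets on a C57BL/6J background. The 3 knockout-labelled libraries come from mice with loxP-flanked Dhps and MIP1-CreERT, a Cre recombinase that an estrogen receptor ligand switches on and that the mouse insulin promoter restricts to β cells. The other 3 libraries are labelled control, with no further genotype, so whether they carry Cre or a floxed allele is not known here. Dhps encodes deoxyhypusine synthase, which begins the conversion of a lysine of eIF5A, a translation factor, to hypusine. The labels give no age, sex, diet or tamoxifen treatment and do not explain the HF at the start of each sample name. Whole islets hold many cell types, and the labels do not say whether each library is 1 animal or a pool, so the p-values speak of the spread among these libraries, which may be technical.

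Complement is a protease cascade that marks targets for uptake and lysis. In the classical pathway C1q, a hexamer of heterotrimers built from the A, B and C chains, binds antibody or other ligands and activates the proteases C1r and C1s, which cut C4 and C2. In the alternative pathway C3 and factor B form the convertase that cuts further C3. The liver makes most plasma complement, macrophages are a main source of C1q, and fibroblasts, endothelial and epithelial cells can make C1r, C1s, C3, C4 and factor B.

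The count table places C1qb, C1qc and C1qa in a row on the minus strand of chromosome 4, within 18.7 kb at chr4:136880145-136898844 (mm10). C1ra and C1s1 face each other at their 3′ ends on chromosome 6, at chr6:124512621-124523440 and chr6:124530344-124542359. Cfb and C2 lie in tandem on the minus strand of chromosome 17, at chr17:34856374-34862514 and chr17:34862602-34882100, with 87 bases between them. C4b, at chr17:34728381-34743897, lies 112476 bases from Cfb. C3, at chr17:57203967-57228136, is 22321866 bases from C2 on the same chromosome.

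Promoter sequences are shown for members that differ in size of change and in the cells known to make them, namely C1q chains, C1s1 and C3. RefSeq promoters (GRCm38.p6) were found for 5 of the 9, and 4 had enough bases upstream of any annotated exon to print. Capitals mark matches, on either strand, to the PU.1 core GAGGAA or to the C/EBP letters TTGCNNAA. PU.1 is a myeloid transcription factor and C/EBP factors act in the acute-phase response. All runs read 5′ to 3′ on the gene's strand, which is the minus strand for each.
C1qb: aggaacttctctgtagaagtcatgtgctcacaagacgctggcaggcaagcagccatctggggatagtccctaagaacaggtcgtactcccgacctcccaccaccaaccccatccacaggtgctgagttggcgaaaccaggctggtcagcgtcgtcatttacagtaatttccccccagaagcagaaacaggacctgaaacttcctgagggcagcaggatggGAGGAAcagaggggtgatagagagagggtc
C1qc: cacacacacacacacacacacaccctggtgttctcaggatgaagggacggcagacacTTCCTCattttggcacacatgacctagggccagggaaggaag
C1s1: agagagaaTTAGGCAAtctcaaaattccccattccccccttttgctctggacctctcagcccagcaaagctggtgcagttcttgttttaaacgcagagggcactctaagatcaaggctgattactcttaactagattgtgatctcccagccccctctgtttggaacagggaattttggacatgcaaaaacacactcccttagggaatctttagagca
C3: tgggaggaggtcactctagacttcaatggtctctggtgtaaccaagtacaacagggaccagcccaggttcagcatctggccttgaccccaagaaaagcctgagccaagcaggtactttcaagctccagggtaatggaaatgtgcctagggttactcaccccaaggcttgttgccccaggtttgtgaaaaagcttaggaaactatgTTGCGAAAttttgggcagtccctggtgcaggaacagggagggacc

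These runs span chr4:136886201-136886450 for C1qb, chr4:136893066-136893164 for C1qc, chr6:124542393-124542609 for C1s1 and chr17:57228137-57228386 for C3. Both C1q runs held the PU.1 core once, and the C1s1 and C3 runs held the C/EBP letters once each. The PU.1 core was present in 23.1% of 27025 RefSeq promoters over a window as long as the C1qb run and in 9.85% over one as long as the C1qc run. The C/EBP letters were present in 8.71% and 9.55% over windows as long as the C1s1 and C3 runs. The interferon-response letters GAAANNGAA (ISRE) and TTCNNNGAA (GAS) and the NF-kB letters GGNNTTTCC matched none of the 4 runs. No motif here overlaps another, and a match describes letters, not a binding site.

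Libraries held 21027737 to 23249895 counts assigned to genes, with 15954 to 16370 genes detected. Dhps, which checks the labels, did not separate the groups: 11.7, 12.7 and 11.4 CPM in knockout-labelled replicates 1 to 3, against 12.0, 13.4 and 12.3 CPM in controls 1 to 3 (log2 fold change −0.07 ± 0.12 SE, edgeR quasi-likelihood adjusted p = 0.742). CPM are counts scaled to a common library size. The count sums all exons of Dhps and all islet cells, so deletion in β cells was not resolved by it, and directions below refer to the labels. Of 13736 genes that passed the filter on low counts, 568 rose and 361 fell in the knockout-labelled libraries at an adjusted p under 0.05. All 9 complement components passed that filter. They were chosen from this same contrast, so their fold changes are descriptions and carry no test. For the record, 6 of the 9 passed the adjusted threshold upward and 0 downward, beside 4.14% of all tested genes upward. In 8 of the 9 the knockout-labelled libraries all lay above the controls, beside 16.9% of all tested genes.

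The C1q chains had the highest levels per length of the components, as set out further on, and differed in the size of their change. C1qa, the A chain, stood at 62.6, 64.4 and 88.5 CPM in knockout-labelled replicates 1 to 3, against 60.6, 54.5 and 48.1 CPM in controls 1 to 3. The groups just failed to overlap, since knockout-labelled replicate 1 and control 1 were about 2 CPM apart, and knockout-labelled replicate 3 stood above the rest. C1qb, the B chain, had 33.5, 34.1 and 24.5 CPM in the knockout-labelled libraries, against 15.9, 21.5 and 24.9 CPM in the controls. It is the member whose groups overlapped, because control 3 exceeded knockout-labelled replicate 3. C1qc, the C chain, had 26.2, 26.2 and 21.5 CPM in the knockout-labelled libraries, against 9.21, 11.9 and 13.4 CPM in the controls, with a clear gap between groups. The log2 fold changes were 0.40 ± 0.15 for C1qa, 0.56 ± 0.18 for C1qb and 1.10 ± 0.15 for C1qc (SE).

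**Figure D1:**
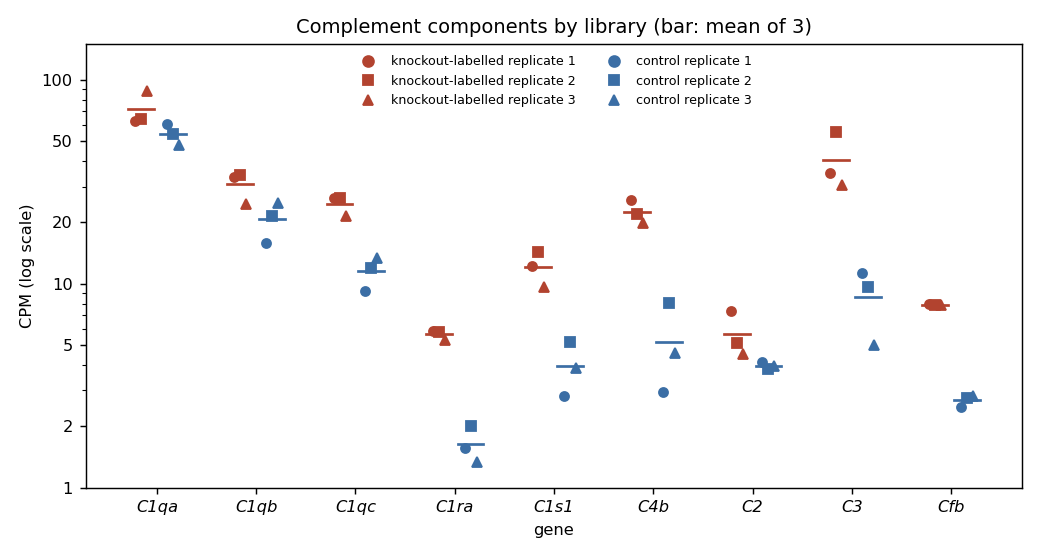
CPM (log axis) of each complement component in the 3 knockout-labelled and 3 control libraries, with a bar at each mean. C1qb is the member whose groups overlap, and the ratio of means is widest for C3, at 4.67.

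The summed C1q transcripts were steadier across libraries than any single chain. The sum of the 3 chains was 122, 125 and 135 CPM in the knockout-labelled libraries, against 85.8, 87.9 and 86.4 CPM in the controls, a mean of 127 ± 6.49 CPM in the knockout-labelled libraries and 86.7 ± 1.09 CPM in the controls (SD, n = 3 each). Beneath this sum, the chains traded shares. C1qa made up 51.2%, 51.6% and 65.8% of the sum in the knockout-labelled libraries, against 70.7%, 62.0% and 55.6% in the controls. C1qc made up 21.4%, 21.0% and 16% in the knockout-labelled libraries, against 10.7%, 13.6% and 15.5% in the controls, so its share was higher in every knockout-labelled library, narrowly so in replicate 3. The share of C1qb overlapped between groups, at 24.3% ± 5.27 in the knockout-labelled libraries and 24.0% ± 5.16 in the controls (SD, n = 3 each). The A chain moved against the others within groups: in knockout-labelled replicate 3 and in control 1, C1qa was the highest of its group while C1qb and C1qc were the lowest. With group means removed, C1qb and C1qc followed each other with a Pearson r of 0.99 over the 6 libraries, whereas C1qa ran against C1qb with r = −0.93 and against C1qc with r = −0.87. These are descriptions over 6 libraries that share their amplification chemistry. Transcripts of the 3 chains shared 0 of their 50-base words with any other gene's transcripts in GENCODE M21.

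**Figure D2:**
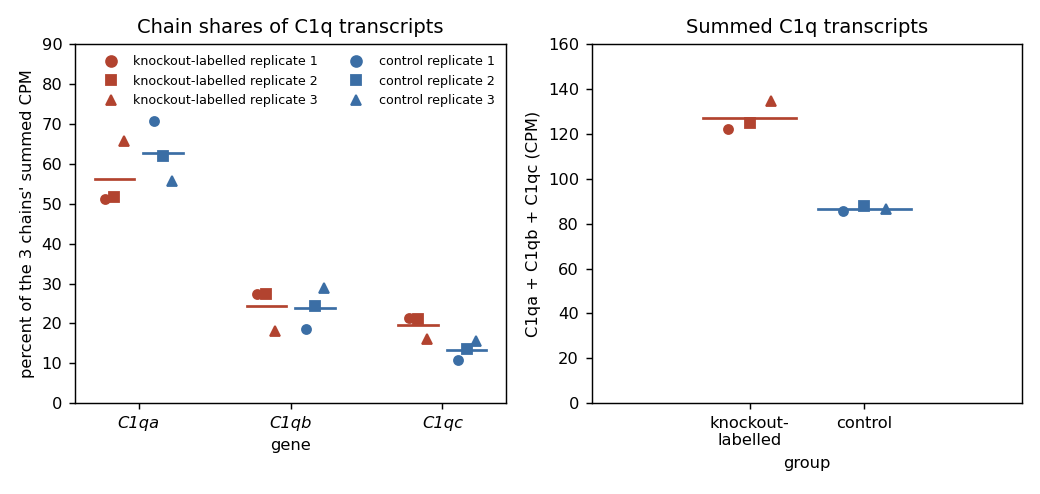
Left, each chain's percent of the summed C1qa, C1qb and C1qc CPM by library; right, the summed CPM by group; bars are means. The sum lies between 122 and 135 CPM in the knockout-labelled libraries and between 85.8 and 87.9 CPM in the controls, while the chain shares shift between libraries of 1 group.

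C1ra and C1s1, the proteases that C1q activates, had mean CPM 3.46 and 3.04 times as high in the knockout-labelled libraries as in the controls. C1ra had 5.90, 5.83 and 5.28 CPM in the knockout-labelled libraries, against 1.57, 2.0002 and 1.34 CPM in the controls, and log2 fold change 1.79 ± 0.24 (SE). C1s1 had 12.2, 14.3 and 9.60 CPM in the knockout-labelled libraries, against 2.82, 5.21 and 3.88 CPM in the controls, and log2 fold change 1.60 ± 0.24 (SE). Neither gene's groups overlapped. In proportion to each other the 2 proteases did not separate the groups, with 0.480 ± 0.0719 C1ra CPM per C1s1 CPM in the knockout-labelled libraries and 0.429 ± 0.112 in the controls (SD, n = 3 each). Both genes have near copies, C1rb and C1s2, in the same gene cluster. Of their 50-base words, 50.8% for C1ra and 39.0% for C1s1 occur in another gene's transcripts, so part of their reads cannot be assigned uniquely. C1rb had 0 counts in every library and C1s2 had 1 count in control 1 and none elsewhere.

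C4b and C2, whose products together make the classical C3 convertase, differed in the size of their change. C4b, the source of C4, had 25.8, 22.0 and 19.9 CPM in the knockout-labelled libraries, against 2.96, 8.08 and 4.59 CPM in the controls. The controls spread more than 2-fold among themselves, yet the highest control stayed well below the lowest knockout-labelled library, and the log2 fold change was 2.11 ± 0.29 (SE). The paralog C4a had 0 counts in every library, and 35.2% of the 50-base words of C4b also occur in C4a transcripts, so a C4a share in the C4b count was not resolved. C2, the protease of that convertase, had 7.39, 5.12 and 4.52 CPM in the knockout-labelled libraries, against 4.12, 3.83 and 3.96 CPM in the controls. Knockout-labelled replicate 1 carried much of its difference, since replicate 3 was only slightly above control 1. Its log2 fold change was 0.52 ± 0.23 (SE), and 0.28 without knockout-labelled replicate 1.

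C3 and Cfb, the core of the alternative pathway, both stood clear of the controls. C3, the central component on which all pathways meet, had 35.03, 55.8 and 30.4 CPM in the knockout-labelled libraries, against 11.2, 9.67 and 5.02 CPM in the controls. Its means of 40.4 ± 13.5 CPM in the knockout-labelled libraries and 8.65 ± 3.24 CPM in the controls (SD, n = 3 each) differed by a ratio of 4.67, the largest among the 9, with log2 fold change 2.23 ± 0.30 (SE). Its transcript shared no 50-base word with another gene. Cfb, which encodes factor B, had 7.96, 7.89 and 7.87 CPM in the knockout-labelled libraries, against 2.50, 2.75 and 2.81 CPM in the controls. Its SDs were 0.0482 CPM in the knockout-labelled libraries, the smallest of the 9 in that group, and 0.164 CPM in the controls, where only C2 had a smaller one (0.143 CPM). These SDs are not scaled to the mean. At 181, 168 and 155 counts in the knockout-labelled libraries, counting noise alone would give a larger SD. The closeness of these values therefore does not show that Cfb is unusually uniform. The log2 fold change of Cfb was 1.56 ± 0.18 (SE). Although only 87 bases separate Cfb from the end of C2, the 2 genes differed in their ratio of means, 2.95 for Cfb and 1.43 for C2. Both share most of their 50-base words (81.4% and 58.0%) with a single GENCODE M21 gene, Gm20547, which is not among the rows of the count table.

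On a scale of CPM per kb of summed exon length, which allows genes to be set side by side, the order of levels changed below the C1q chains. In the knockout-labelled libraries C1qa came first at 66.4 ± 13.4, then C1qb at 28.9 ± 5.05 and C1qc at 23.4 ± 2.57, and then C3 at 7.86 ± 2.63 CPM per kb (SD, n = 3). C4b at 4.18 ± 0.556 and C1s1 at 4.04 ± 0.795 CPM per kb followed and lay within their spread of each other, then Cfb at 2.88 ± 0.0175, C2 at 2.15 ± 0.573 and C1ra at 2.05 ± 0.122. In the controls C1qa stood at 50.3 ± 5.81, C1qb at 19.6 ± 4.28 and C1qc at 10.9 ± 2.02 CPM per kb. The other 6 lay between 0.594 ± 0.120 for C1ra and 1.68 ± 0.630 for C3, with C2 second among them at 1.501 ± 0.0542. C3, C2 and C1s1 did not differ beyond their spread there. Relative to C3, each C1q chain and C2 were lower in every knockout-labelled library than in any control: C1qa stood at 1.95 ± 0.889 CPM per C3 CPM in the knockout-labelled libraries and 6.86 ± 2.34 in the controls (SD, n = 3 each). C4b, Cfb, C1ra and C1s1 per C3 overlapped between groups.

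The other genes of the system were taken from a list of 46 further complement genes, of which 23 passed the filter on low counts. Of these 23, 8 rose, 0 fell and 15 were not called under edgeR's quasi-likelihood test, adjusted by Benjamini-Hochberg over all genes, beside 4.14% of all tested genes that rose and 6.76% called in either direction. Their median log2 fold change was 0.77, against 0.01 over all tested genes, and all 23 had a positive value where 50.9% of all tested genes did. The count of 8 rested on single libraries: 0 rose without knockout-labelled replicate 1, 1 without control 2, 4 without control 3 and 5 without knockout-labelled replicate 3.

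Among soluble regulators, 4 of 7 tested genes rose. Serping1, the C1 inhibitor that switches off C1r and C1s, was at 105 ± 13.7 CPM in the knockout-labelled libraries and 72.9 ± 1.97 CPM in the controls (SD, n = 3 each), log2 fold change 0.53 ± 0.11 (SE, edgeR adjusted p = 0.0282). Per kb of exon its level was 57.7 ± 7.51 CPM in the knockout-labelled libraries and 40.03 ± 1.08 CPM in the controls, above the levels per kb of the proteases C1ra and C1s1 given above. Vtn, vitronectin, and Clu, clusterin, which both hold the terminal complex in check, rose by 1.20 ± 0.19 (edgeR adjusted p = 0.0146) and 0.94 ± 0.18 (edgeR adjusted p = 0.0231). Clusterin stood at 338 ± 43.7 CPM in the knockout-labelled libraries and 176 ± 42.3 CPM in the controls. Cpn1, a subunit of the carboxypeptidase that trims anaphylatoxins, was not called, with 65.2 ± 19.8 CPM in the knockout-labelled libraries and 55.6 ± 2.89 CPM in the controls (edgeR adjusted p = 0.445). Neither were Cfi, factor I (0.30 ± 0.28, edgeR adjusted p = 0.534), and C4bp, the C4b-binding protein (0.80 ± 0.49, edgeR adjusted p = 0.327).

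Of the membrane regulators edgeR called 0 of 4, with 3 at an unadjusted p under 0.05, while DESeq2 called 2 of 5 and limma-voom 0 of 4. Cr1l, the mouse regulator also called Crry, had 63.9 ± 8.73 CPM in the knockout-labelled libraries and 49.9 ± 3.79 CPM in the controls (SD, n = 3 each; edgeR adjusted p = 0.0920). Cd59a, which blocks the terminal pore, had 13.6 ± 1.42 CPM in the knockout-labelled libraries and 8.80 ± 2.39 CPM in the controls (edgeR adjusted p = 0.0822). Cd55, the decay-accelerating factor, had 2.55 ± 0.818 CPM in the knockout-labelled libraries and 0.849 ± 0.395 CPM in the controls (edgeR adjusted p = 0.0610). For Cd59b, a second gene of that kind, the log2 fold change was 0.16 ± 0.43 (SE, edgeR adjusted p = 0.853).

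Of the receptors for complement fragments, 2 of 6 tested genes rose. Itgb2, the β2 chain of complement receptors 3 and 4, had 6.20, 11.2 and 6.70 CPM in the knockout-labelled libraries, against 2.27, 1.71 and 3.40 CPM in the controls (log2 fold change 1.70 ± 0.31 SE, edgeR adjusted p = 0.0210). C3ar1, the C3a receptor of myeloid cells, rose by 0.76 ± 0.20, at the edge of the threshold (edgeR adjusted p = 0.04996), and was called in 6 of 13 alternative settings. C5ar1, the C5a receptor, was not called at 5.36 ± 1.92 CPM in the knockout-labelled libraries and 3.15 ± 0.572 CPM in the controls. The α chains Itgam (log2 fold change 1.45 ± 0.49) and Itgax (0.36 ± 0.31) and the membrane receptor Cd93 (0.35 ± 0.16) were not called either, with edgeR adjusted p of 0.0958, 0.494 and 0.189.

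Of the lectin pathway and the rest of the alternative pathway, 2 scarce genes rose. Colec11, a collectin of the lectin pathway, had 37, 11 and 21 counts in the knockout-labelled libraries, against 0, 3 and 4 counts in the controls (log2 fold change 3.39 ± 0.76 SE, edgeR adjusted p = 0.0342). Cfp, properdin, which stabilises the alternative convertase, had 1.496, 7.002 and 1.32 CPM in the knockout-labelled libraries, against 0.370, 0.292 and 0.356 CPM in the controls (3.25 ± 0.70, edgeR adjusted p = 0.0304). Its log2 fold change was 2.03 without knockout-labelled replicate 2, the library with the most lymphocyte transcripts, and limma-voom did not call it (adjusted p = 0.0845). Colec11 was called in 7 of 12 alternative settings and Cfp in 8 of 13. Leaving out knockout-labelled replicate 1, control 2 or control 3 ended both calls, leaving out knockout-labelled replicate 3 ended that of Colec11, and leaving out control 1 ended that of Cfp. Masp1, a lectin pathway protease, was not called (1.59 ± 0.72, edgeR adjusted p = 0.189).

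Of the 7 terminal pathway genes, 3 passed the filter on low counts. Of these edgeR called 0, with 2 at an unadjusted p under 0.05, while DESeq2 called 1 of 5 and limma-voom 1 of 3. C8b, a chain of C8, had 54.2 ± 5.61 CPM in the knockout-labelled libraries and 49.5 ± 8.11 CPM in the controls (SD, n = 3 each; log2 fold change 0.13 ± 0.13 SE, edgeR adjusted p = 0.569). C7 had 8.32, 4.42 and 5.23 CPM in the knockout-labelled libraries, against 0.787, 3.08 and 2.10 CPM in the controls (1.58 ± 0.42, edgeR adjusted p = 0.0529). Per kb of exon C8b was at 24.2 ± 2.50 CPM in the knockout-labelled libraries and 22.1 ± 3.62 CPM in the controls, above the level per kb of C3 in both. C8g, a further chain of C8, had 5.06 ± 1.26 CPM in the knockout-labelled libraries and 3.15 ± 0.381 CPM in the controls (edgeR adjusted p = 0.112). Hc, which encodes C5, and C9 had 0 counts in every library, which allows up to 0.152 CPM in a library at 3 counts. In all, 10 of the 23 further genes below the filter had 0 counts in every library, among them the lectins Mbl1 and Colec10. Masp2, also at 0, shares 1798 bp of exon with Tardbp, so reads there may not have been assigned to it.

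**Figure D3:**
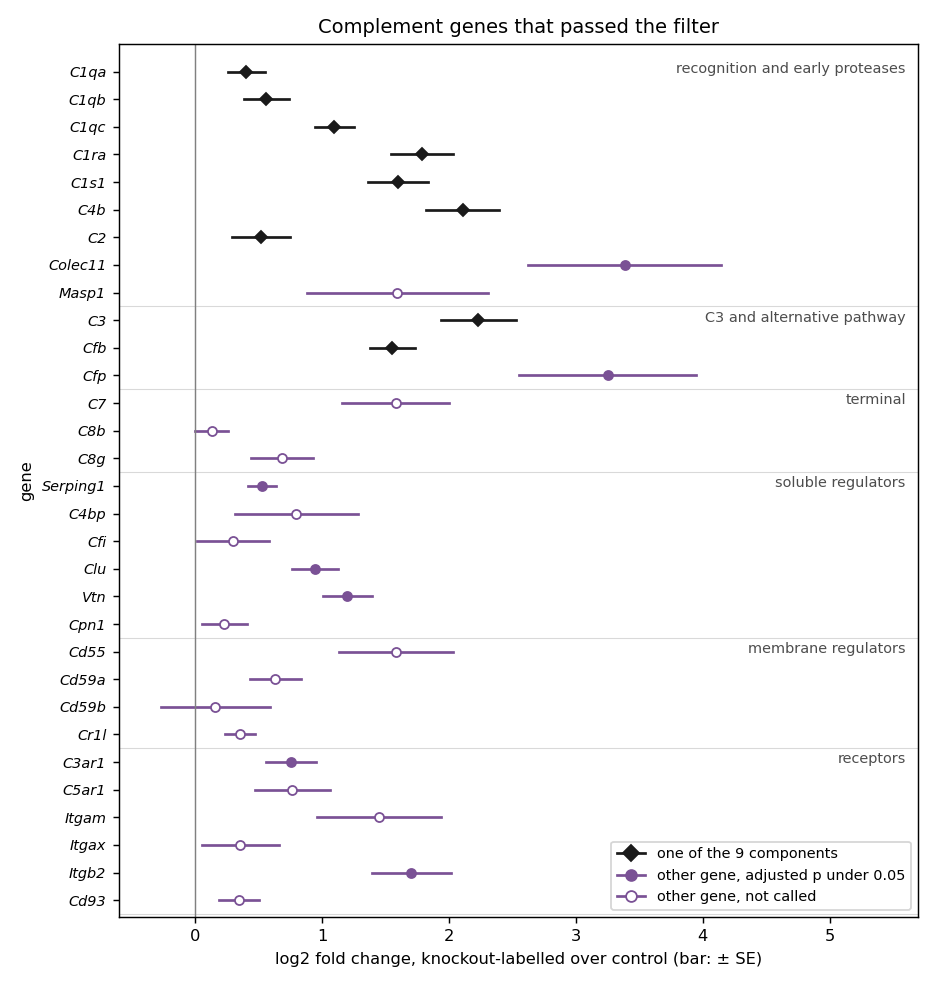
Log2 fold change (knockout-labelled over control, ± SE) of the 9 complement components and of other complement genes that passed the filter on low counts, grouped by role. All points drawn lie above 0; filled circles passed the adjusted threshold and open circles did not, and 1 tested gene is not shown.

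Transcripts of several other cell types were higher in the same libraries, and in bulk RNA more cells of a type and more RNA per cell cannot be told apart. Over all tested genes 4.14% rose and 2.63% fell in edgeR. All 15 macrophage markers were tested, 6 rose and 0 fell. Their summed level was 292 to 385 CPM in the knockout-labelled libraries, against 182 to 201 CPM in the controls. Of 15 stellate cell and fibroblast markers, 6 rose and 0 fell, with sums of 389 to 491 CPM in the knockout-labelled libraries, against 110 to 356 CPM in the controls. Of 12 endothelial markers, 5 rose and 0 fell, with sums of 565 to 665 CPM in the knockout-labelled libraries, against 398 to 517 CPM in the controls. The 14 acinar markers gave 26090 to 29914 CPM in the knockout-labelled libraries, against 1008 to 10975 CPM in the controls, where control 3 was the lowest; edgeR, DESeq2 and limma-voom each called 0 of them, with 10 of the 12 tested at an unadjusted p under 0.05 in edgeR. Each of these 4 sums gave an exact two-sided permutation p of 0.1, the smallest that 3 against 3 libraries allow. The part of these cells in the complement values was not tested.

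Further lists gave mixed results. The 8 duct markers summed to 538 to 748 CPM in the knockout-labelled libraries, against 398 to 489 CPM in the controls (exact permutation p = 0.1), with 1 of 7 tested called. The 7 mesothelial markers in the table overlapped between groups, at 52.9 to 169 CPM in the knockout-labelled libraries and 74.9 to 166 CPM in the controls, and they share Krt19 with the duct list. Lymphocyte markers reached 95.8 CPM in knockout-labelled replicate 2 and lay between 12.8 and 27.0 CPM in the other 5 libraries. Of the neutrophil markers Cxcr2, Mpo and Elane had 0 counts in all libraries, and the list summed to no more than 1.69 CPM. Hepatocyte markers other than transthyretin were near 0: Cyp3a11 had 0 counts, albumin (Alb) averaged 0.791 CPM in the knockout-labelled libraries and 0.980 CPM in the controls, and nearly all of that list's sum was Ttr, the transthyretin gene, which islet endocrine cells also make. The 9 β cell markers summed to 392139 to 446778 CPM in the knockout-labelled libraries, against 365756 to 494032 CPM in the controls, and most of that sum was Ins1 and Ins2, the insulin genes, and Iapp, the amylin gene, which were not called. Over all tested genes 2.63% fell in edgeR and 15.2% lay below all controls in every knockout-labelled library. Of the 9 β cell markers 4 fell, 0 rose and 5 were not called in edgeR, and 5 lay below all controls in every knockout-labelled library. Those that fell were Ucn3, urocortin 3, by 0.86 ± 0.15, Slc2a2, a glucose transporter, by 1.15 ± 0.24, Slc30a8, a zinc transporter, by 0.81 ± 0.17, and Nkx6-1, a transcription factor, by 0.65 ± 0.12 (log2 ± SE, edgeR adjusted p of 0.0197, 0.0284, 0.0303 and 0.0215). The part of these genes in the complement values was not tested.

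**Figure D4:**
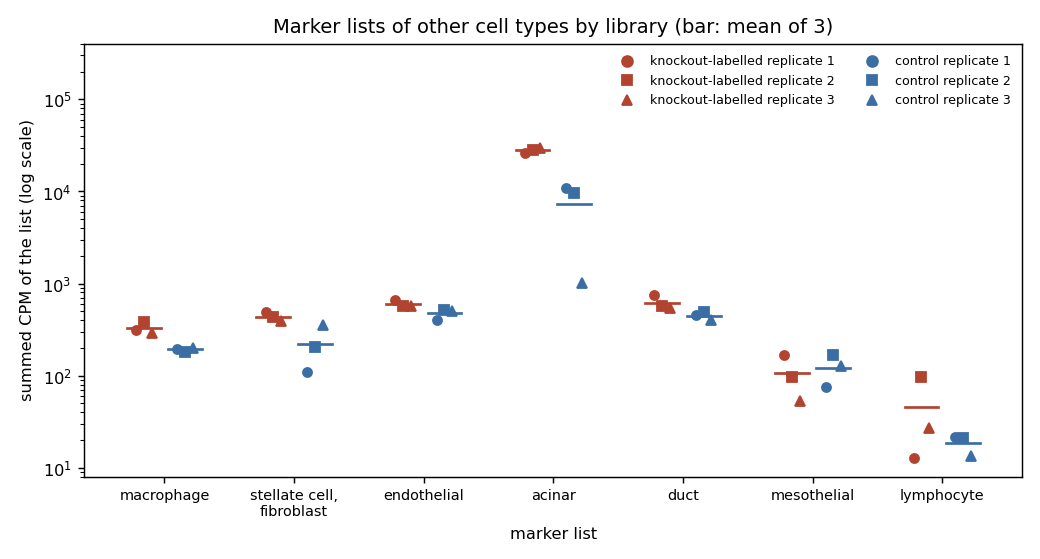
Summed CPM (log axis) of 7 marker lists in each library, with bars at the means. Knockout-labelled libraries lie above all controls for the macrophage, stellate cell, endothelial, acinar and duct lists and overlap them for the mesothelial and lymphocyte lists.

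Set against macrophage transcripts in the same library, the C1q chains and the other components gave different pictures. The summed C1q CPM per 100 CPM of the macrophage list was 39.6, 32.4 and 46.1 in the knockout-labelled libraries, against 43.7, 48.3 and 43.0 in the controls, so the groups overlapped. For 5 of the other 6 components, all except C2, the same ratio was higher in every knockout-labelled library than in any control. The share of all tested genes that separates the groups in this ratio was not computed, so the count is only a description. C3 stood at 12.1 ± 2.14 CPM per 100 macrophage CPM in the knockout-labelled libraries and 4.51 ± 1.76 in the controls (SD, n = 3 each), and C4b at 6.95 ± 1.31 in the knockout-labelled libraries and 2.75 ± 1.52 in the controls.

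Set against the stellate cell and fibroblast list, 5 of the same 6 components overlapped between groups. C4b was the exception, with 5.25, 5.07 and 5.10 CPM per 100 CPM of that list in the knockout-labelled libraries, against 2.70, 3.96 and 1.29 in the controls. C3 gave 7.13, 12.8 and 7.82 in the knockout-labelled libraries, against 10.3, 4.74 and 1.41 in the controls. The sum of that list, led by the collagen genes Col3a1, Col1a1 and Col1a2, ranged from 110 to 356 CPM among the controls. Control 1 had the lowest sum and the highest control ratio for each of the 5 that overlapped. Per 100 CPM of the acinar list, C2 was lower in all 3 knockout-labelled libraries and the other 5 overlapped. Per 100 CPM of the endothelial list, 5 of 6 were again higher in every knockout-labelled library, with C2 overlapping. These ratios use the contrast that chose the genes and describe the 6 libraries. For none of these lists was the share of all tested genes that separates the groups computed.

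**Figure D5:**
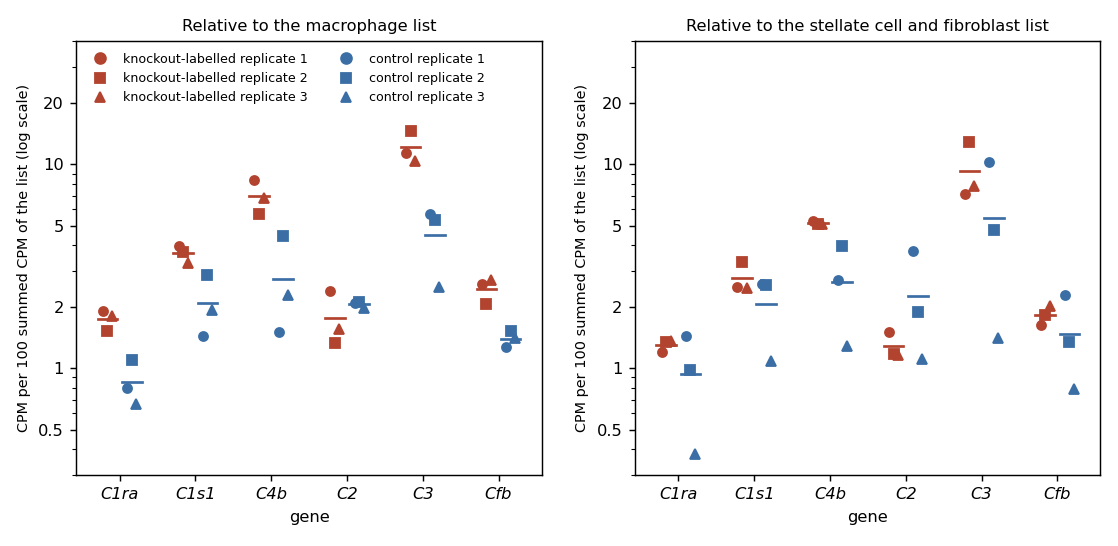
CPM of 6 complement components per 100 summed CPM of the macrophage list (left) and of the stellate cell and fibroblast list (right), on log axes, by library with bars at the means. Against the macrophage list 5 of 6 genes separate the groups, and against the stellate cell list C4b alone does. The share of all tested genes that does so was not computed.

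The genes whose library-to-library pattern was most like each component, after group means were removed, were ranked by Pearson r of log2 CPM over the 6 libraries among 11121 genes. They were Vps9d1, Ykt6 and Map2k1 for C1qa, Tk2, Nrf1 and Camsap2 for C1qb, and Tmem119, Nrf1 and Dolpp1 for C1qc. For the proteases they were Cdkn1b, Itsn1 and Lrrc42 for C1ra, Nr1h4, Nckap1l and Sdr39u1 for C1s1, and Gja1, Creg1 and Tubb4a for C2. For the rest they were Atxn1, Nrip1 and Gjd2 for C3, Wdr34, Kcnj6 and Tmem47 for C4b, and Trim14, Robo4 and Runx1t1 for Cfb. C1qb and C1qc shared Nrf1, and no other gene stood in more than 1 of these 9 lists. All r were 0.991 or more, but only 4 values per gene are free once group means are removed, so they are given as descriptions.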

How the data were processed

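Poly-dT primed, amplified cDNA of total RNA was sequenced, 10 ng per sample per the labels' protocols. Per the submitters' processing notes, mm10 was the build and the tools were STAR (2.4.2a), Subread (1.5.0) with featureCounts, and edgeR. The annotation, and how strand and multi-mapped reads were handled, are not given in sources used here. Values are the authors' raw counts per gene, whole numbers that are not normalized, per the file headers. Its gene length column, in another unit (bp), scaled CPM per kb.

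Counts were tested in edgeR 4.0.16 (R 4.3.3) with TMM factors, the default expression filter, quasi-likelihood fits, group as the only term and Benjamini-Hochberg adjustment over 13736 genes at 0.05. Standard errors come from the fold change and F value. CPM use TMM-scaled library sizes. The correlations used log2(CPM + 0.5) and genes with a mean of at least 2 CPM. Named genes were the 9 components, other complement genes that passed or were most abundant in their list, abundant markers and the best correlated genes; Gcg and Csf1r were added after their values were seen. Not every gene covered by that rule is reported here. Components and lists were chosen with earlier results of these data known. Simulated data (200 changed genes among 13736) gave recovery of 34% at 1.5-fold, 72% at 2-fold, 84% at 4-fold and 98% at 8-fold, with 9 false among 153 calls. No 2 libraries of a group agreed within counting noise (chi-square per degree of freedom at least 10.8). The settings varied were the scaling (RLE, upper quartile), the filter (none, or 1 CPM in 3 libraries), the tool (DESeq2 1.42.0, or limma-voom from limma 3.58.1), a replicate block and leaving out each library.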

Additional observations from a re-analysis of the deposited data

How the results depend on the processing

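The 9 complement components kept a positive log2 fold change under all 13 alternatives. The number passing the adjusted threshold was 6 under edgeR and 7 under DESeq2, which added C1qb, and lay between 4 and 6 with 1 library left out; the 4 that passed without knockout-labelled replicate 1 were among the 6. C1qa and C2 passed under none. For the other complement genes the number that rose was 8, with 10 under no filter, 11 under DESeq2 and 0 to 7 with 1 library left out; 0 fell in any setting (in the same edgeR fit 15 of the 23 had an unadjusted p under 0.05, all upward). Over all genes, leaving out 1 library gave 56 to 534 that rose and 8 to 434 that fell, fewest without knockout-labelled replicate 1 or control 2; DESeq2 gave 958 and 700, and no filter gave 793 and 620. Some log2 differences of genes or lists that were not called changed sign. With 1 library left out, Itgax ranged from −0.038 to 0.59 (negative without knockout-labelled replicate 2), Cpn1 from −0.048 to 0.35 (negative without knockout-labelled replicate 3) and Cd59b from −0.066 to 0.52 (negative without knockout-labelled replicate 3, at −0.020, or control 3). The mesothelial sum ranged from −0.70 to 0.14 (positive without knockout-labelled replicate 3), and the β cell sum from −0.14 to 0.090 (positive without knockout-labelled replicate 2, at 0.011, or control 1), with 0.0048 under upper-quartile factors. The cause was not tested. Same-numbered libraries did not deviate together (correlations −0.05, 0.01 and 0.04), so no pairing by number was seen. Only control 3 correlated best with the knockout-labelled library of its own number. With so few libraries per group this check cannot exclude a pairing. With a replicate block 6 components, 6 other complement genes and 539 of all genes rose, and 287 genes fell. Colec11 and C3ar1 were not called with the block (adjusted p = 0.0547 and 0.0601). Counts were few for Colec11, at most 37 in a library, which limits the precision of its value.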

Other observations

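C1qa, unlike the other C1q chains, was highest within its group in the libraries where some abundant endocrine cell genes, those of β cells among them, were also highest. Ttr, transthyretin, had 1104, 852 and 2366 CPM in knockout-labelled replicates 1 to 3, against 1245, 696 and 697 CPM in controls 1 to 3. Gcg, glucagon, had 48367, 53580 and 63621 CPM in the knockout-labelled libraries, against 55686, 36092 and 40195 CPM in the controls. For Ttr and Gcg, as for C1qa, knockout-labelled replicate 3 and control 1 led their groups, whereas C1qb and C1qc were lowest in those libraries. The β cell genes Ins1, Ins2 and Iapp also led there, so the pattern was not particular to non-β cells. None of the other β cell markers led in both libraries, and Slc30a8, Slc2a2, Nkx6-1 and Pdx1 were lowest in both. Each of these libraries also had the lowest TMM scaling factor of its group, 0.925 and 0.937. Csf1r, the receptor of macrophage growth factor, had 19.4, 22.9 and 22.3 CPM in the knockout-labelled libraries, against 15.0, 17.9 and 18.1 CPM in the controls, and so was lowest in control 1. This pattern was noticed after the values were seen and was not tested.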
